A study of Mus musculus with 2 samples.

Results

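The 3p arms of the mouse microRNAs numbered miR-6896 to miR-7094 were described on a pair of miRNA microarrays. They were taken by probe name, as every probe from miR-6896 through miR-7094, with or without a letter, that ends in -3p. This gave 201 of the 1900 mouse miRNA probes, 1 for each number of the range except miR-6973 and miR-7036, which have an a and a b form. The RNA was total RNA of colonic lamina propria mononuclear cells, and the mice were Balb/c males. One array carried RNA of germ-free mice, which lack a microbiota, and the other that of specific pathogen-free (SPF) mice, which have one. The labels record no further genotype or treatment, no age and no number of animals or pools. With 1 array per group no difference between the groups could be set against replicate error or tested.

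Most miRNAs are cut from a hairpin transcript by the nuclease Drosha and then by Dicer. Mirtrons skip Drosha: splicing releases a short intron, the lariat is debranched, and the folded intron goes to Dicer. In 5′-tailed mirtrons the hairpin lies against the 3′ end of a longer intron and the tail before it is trimmed away. The 3p arm of both kinds carries the end of the intron, with its polypyrimidine tract and final AG, and the 5p arm that pairs with it is rich in purines. Mirtrons are usually rare next to miRNAs made by Drosha, and few have a known function in immune cells.

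Mature sequences for 177 of the 201 members came from RefSeq (GRCm38.p6), and 24 had no entry. The sequences below carry the results: the 3 brightest members, the 3 with the highest ratio of SPF to germ-free, and miR-7063-3p, which has the seed of one of these. Each is written 5′ to 3′ with the seed (bases 2 to 8) in capitals.
miR-7000-3p: cACCCACCugccuguccuccag
miR-7045-3p: uCUCCCCCcucccccgcacag
miR-7052-3p: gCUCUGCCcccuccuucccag
miR-6973b-3p: uGCUCUCUuacccuuccuag
miR-7063-3p: uGCUCUCUgccccucuuaag
miR-6902-3p: cCAUGUGAuguguggguucag
miR-7015-3p: uCUCACUGuccucugcacuag
All 7 end in AG. The first 5 consist mostly of cytosine and uracil, whereas miR-6902-3p has the lowest pyrimidine share of the 177, at 47.6%.

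The 5p arms that face them are shown for contrast, again with the seed in capitals.
miR-7000-5p: aGGGGACAgguaucuggacaga
miR-7045-5p: aGCGGGUGggggagggggacu
miR-6973b-5p: gUAGGUAUggggagaggacaggga
miR-6902-5p: uUCCUCACauugucacaugaag
The first 3 are rich in guanine, with 40.9%, 66.7% and 54.2%. miR-6902-5p is the exception with 13.6%, and in this hairpin the 3p arm, with 38.1%, is the richer in guanine.

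All 177 members with a sequence lay within an intron of a gene on their own strand in GENCODE M21 (GRCm38), and 28 of them also overlapped an exon in some other transcript. The mature 3p arm ended exactly on the last base of the intron in 136, 1 base before it in 12 and 2 bases before it in 17. Thus 165 of 177 (93.2%) ended within 2 bases of an annotated 3′ splice site, against 30 of 498 (6.02%) of the other 3p arms with a sequence. A final AG was present in 138 members (78.0%) and in 11.2% of the other 3p arms. The rule used names alone, so these features were not chosen for, but miRBase numbers follow the order of registration, so that neighbours in number can share a source study. The median pyrimidine share was 72.2% in the members, 31.8% in the 5p arms of the same numbers and 54.5% in the other 3p arms.

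Of the 160 members at a splice site with a hairpin entry, 150 had a hairpin that began more than 5 bases inside the intron, the layout of a 5′-tailed mirtron. The other 10 had hairpins beginning within 5 bases of the intron's first base, so that the intron is itself the hairpin. They were miR-6944, miR-6958, miR-6973b, miR-6974, miR-7018, miR-7058, miR-7068, miR-7082, miR-7088 and miR-7091. The hairpins of miR-6973b and miR-7000 show both layouts, with the mature 3p arm in capitals.
miR-6973b: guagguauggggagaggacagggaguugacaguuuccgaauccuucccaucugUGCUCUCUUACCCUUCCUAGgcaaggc
miR-7000: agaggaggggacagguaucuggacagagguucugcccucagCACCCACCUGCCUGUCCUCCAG
The first (chr2:131040319-131040398, minus strand) opens with the GU of the 5′ splice site of a 73-base intron of Gfra4, a co-receptor for ligands of the GDNF family, and runs past the AG into the exon. The second (chr2:92387384-92387446, minus strand) stops at the AG of an intron of Mapk8ip1, a scaffold of the JNK pathway. The 12 members that ended elsewhere lay from 3 to 23955 bases before the intron end, the furthest being miR-7036b-3p.

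Each probe had 1 spot. Net intensity is the deposited spot median minus the mean of the blank spots (128.5 for germ-free and 158.3 for SPF). Spots that carry no probe were somewhat brighter than blanks, and the mean + 2 SD of these 174 spots, a net intensity of 37.2 (germ-free) and 43.9 (SPF), was taken as the No Probe level. Some signal without a matching miRNA passes it, since 11 and 7 of 32 negative control spots did so. The labelled cells were checked against miRNAs of known cell types. All 7 leukocyte miRNAs were above the level on both arrays, with summed net intensities of 33017 (germ-free) and 24637 (SPF). The lymphocyte miRNA miR-150-5p held much of this sum, at 18699.5 and 8894, and the scaled log2 ratios of the 7 ran both ways, from -1.31 for miR-150-5p to 0.96 for miR-21a-5p, with a median net intensity of 2426 and 2440. All 8 miRNAs of intestinal epithelium were above it too, and their sum was 5458 (germ-free) and 17109.5 (SPF). Their scaled log2 ratios ran from 1.09 to 1.62. Of 4 muscle miRNAs 2 were above the level, and miR-1a-3p was at or near 0 on both arrays. Of 2 erythroid miRNAs, miR-451a was bright at 5447 and 5306, and miR-144-3p was near the level at 53.2 and 36.6. The part of these marker levels in the values below was not tested, and in RNA from mixed cells, fewer cells of a type and less RNA per cell cannot be told apart.

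Most members gave a weak signal. On each array 139 of 201 (69.2%) exceeded the No Probe level, and 133 (66.2%) did so on both. Over all miRNA probes the shares were 58.1% (germ-free), 56.9% (SPF) and 54.8% (both), and for the other 3p arms they were 48.5% and 48.2% on the single arrays. The median net intensity of the members was 59.0 in the germ-free sample and 71.1 in the SPF sample, against 34.7 and 40.6 for the other 3p arms. At the top the order was the other way round: 2 members (0.995%) exceeded a net intensity of 500 on each array, against 9.09% and 9.78% of the other 3p arms and 14.7% and 15.5% of all probes. The brightest spot without a probe had a net intensity of 65.4 in germ-free and 93.0 in SPF, and 90 (44.8%) and 74 (36.8%) members exceeded it, beside 44.7% and 40.4% of all probes. These shares describe the 2 arrays, since probes are not replicates.

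**Figure D1:**
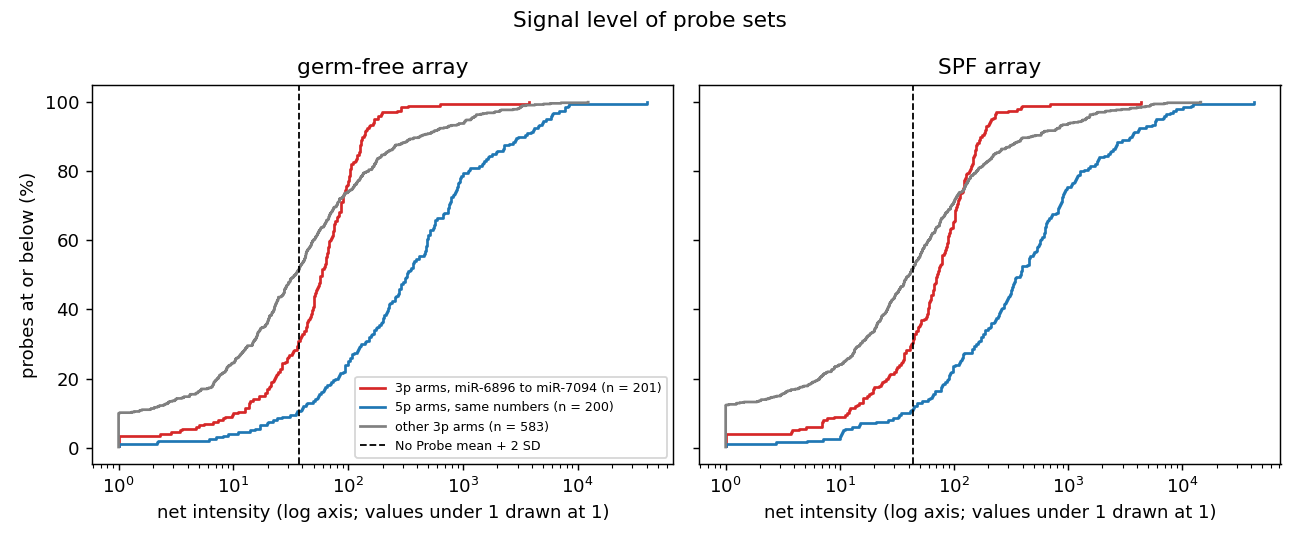
Cumulative share of probes (%) against net intensity (log axis) for germ-free and SPF, for the 201 members, the 5p arms of the same numbers and the other 3p arms. The curve of the members rises steeply just above the dashed No Probe level, and that of the 5p arms lies far to its right.

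miR-7000-3p was by far the brightest member, at a net intensity of 3766 in the germ-free sample and 4320.2 in the SPF sample. It exceeded the next member 5.95-fold and 6.21-fold and ranked 66 and 68 among the 1900 miRNA probes. These folds are of net intensity over the blank mean. Its spot had a raw intensity of 3894 with a surround of 1668 in germ-free, and 4478 with 1059 in SPF. miR-7045-3p, from an intron of Chd4, the ATPase of the NuRD chromatin remodelling complex, followed at 633 and 696. The order of these 2 was the same on both arrays.

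Next came a tier of 4 members. miR-7052-3p, from the deubiquitinase gene Josd2, was at 333 and 383. miR-7028-3p (Tchp) was at 289.9 and 391, and miR-7036b-3p, from the adducin gene Add1, at 289 and 354. miR-7082-3p, from the splicing co-factor gene Raver1, was at 268 and 297. The places of miR-7052-3p and miR-7028-3p were exchanged between the arrays, and no neighbours within this tier differed by more than 2 SD of the difference between single spots, as estimated from repeated control spots and spots without a probe. The steps into and out of the tier did, with log2 gaps of 0.92 and 0.43 in germ-free and 0.83 and 0.35 in SPF. These steps are of net intensity over the blank mean. In germ-free, miR-7045-3p had a raw intensity of 761 with a surround of 637, about as close as miR-7052-3p (462 and 339). There miR-7082-3p (396 and 172) stood further above its surround than miR-7045-3p did. In SPF, miR-7045-3p (854 and 401) stood further above its surround than miR-7028-3p (550 and 395). miR-7004-3p (Atp9a) at 191.8 and 234.0 and miR-7016-3p (Tmem39b) at 182 and 229 completed the 8 brightest by the mean of both arrays. Below the tier the neighbours were again too close to order, and miR-7087-3p held place 7 in germ-free.

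Between the No Probe level and a net intensity of 100 lay 92 members in germ-free and 70 in SPF. A further 41 and 56 lay between 100 and 200, and 4 and 11 between 200 and 500. On the germ-free array 6 members, and on the SPF array 8, were at or under the blank mean. The members at the ends of the number range were both weak. miR-6896-3p, from an intron of the cytolinker gene Dst, had 64.4 and 88.5, and miR-7094-3p had 50.2 and 58.7. The latter has 2 loci, and the one used here lies in an intron annotated to Ighv1-2, an immunoglobulin heavy chain variable pseudogene.

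The signal followed the cytosine content of the mature sequence. In the 59 members with the least cytosine (12.5% to 36.4%), 20 exceeded the No Probe level in the germ-free sample and 21 in the SPF sample, and the median net intensity was 24.3 and 35.01. In the middle 59 members the counts were 49 and 48, with medians of 56.6 and 69.2. In the 59 with the most cytosine (45.0% to 66.7%) they were 54 and 54, with medians of 106.0 and 141.9. Across the 177 members the Spearman correlation of cytosine share with net intensity was 0.72 in germ-free and 0.69 in SPF. These points share an array and a labelling reaction, cytosine share goes along with GC share, and the correlation is given as a description. The same correlation was 0.23 on both arrays over 498 other 3p arms and -0.0023 and -0.00077 over 176 of the 5p arms. A run of 4 or more cytosines occurred in 48 members (27.1%), of which 45 exceeded the level on each array, against 78 of the 129 without one. miR-7045-3p has the highest cytosine share of the members, and miR-7000-3p, at 54.5%, was brighter than the other members of that composition. Whether probe affinity or RNA abundance sets this order was not tested.

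**Figure D2:**
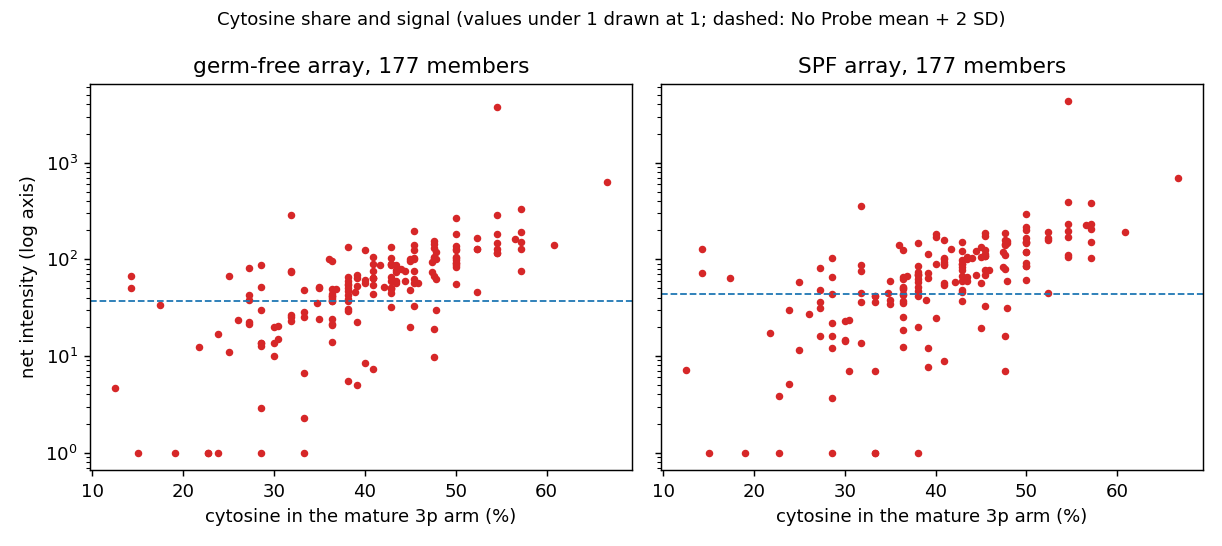
Net intensity (log axis) of the 177 members with a sequence against the percentage of cytosine in the mature 3p arm, 1 panel per array, 1 point per member. Few points under 30% cytosine lie above the dashed No Probe level, whereas nearly all points over 45% do, and miR-7000-3p stands alone at the top.

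The 5p arm of the same hairpin was the brighter arm for most members. Of 200 hairpins with both arms on the arrays, the 3p arm was brighter in 28 (14%) in the germ-free sample and 26 (13%) in the SPF sample, and in 23 on both. In the other 527 pairs of arms the 3p arm was brighter in 45.9% and 46.7%. The median net intensity of the 5p arms was 326 in germ-free and 382 in SPF. Arms are measured by different probes, so their order also holds the affinity of each probe. No 5p probe was paired with miR-7094-3p.

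miR-7000 was the clearest of the hairpins with a brighter 3p arm, its 3p arm exceeding its 5p arm (104 and 118) by 36.4-fold in the germ-free sample and 36.5-fold in the SPF sample. miR-7004-3p exceeded its 5p arm (81.9 and 113.6) as well. In miR-6902 the 5p arm was under the No Probe level on both arrays, at 8.92 and 10.5. The reverse case was more common. miR-7045-5p had 5025 and 5449 and miR-7052-5p had 5938 and 7204, many times the signal of their 3p arms, which were themselves among the brightest members.

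**Figure D3:**
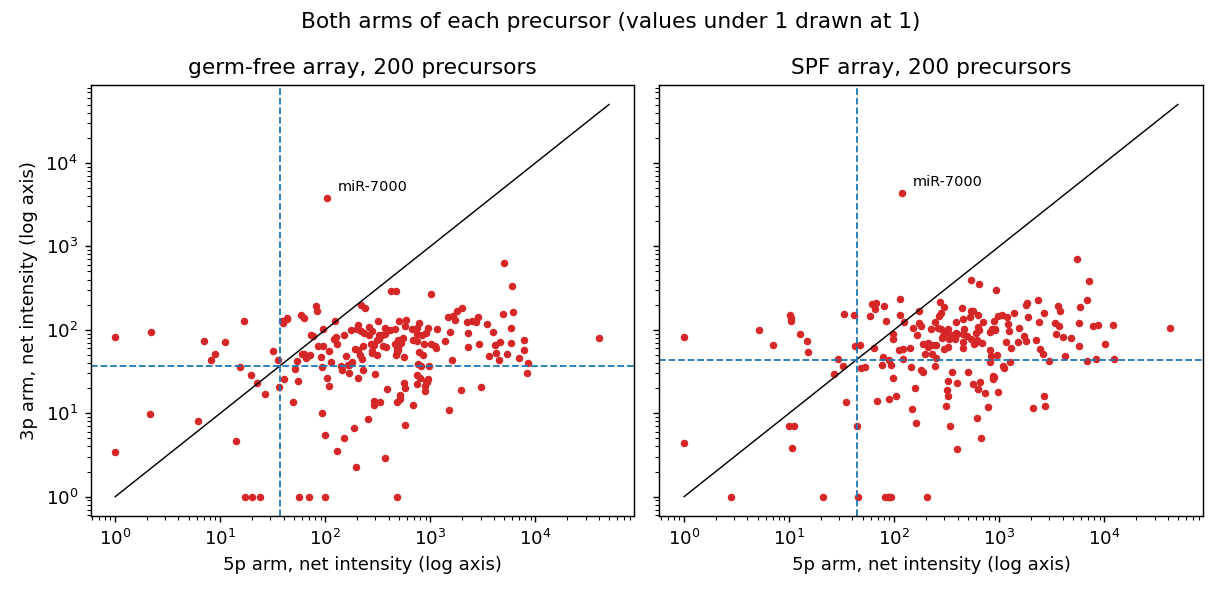
Net intensity of the 3p arm against that of the 5p arm (both log axes) for 200 hairpins on each array. Points under the diagonal have a brighter 5p arm, which holds for all but 28 hairpins in germ-free and 26 in SPF; dashed lines mark the No Probe level.

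For the comparison of SPF with germ-free mice, SPF net intensities were multiplied by 0.849 so that the median of the shared miRNA probes was equal. The mice differ in microbiota, but with 1 array per group its influence cannot be told apart from differences between animals, extractions or hybridisations. The log2 ratio of SPF over germ-free was taken for the 133 members above the No Probe level on both arrays. Little differed between the arrays. The ratios ran from -0.45 to 1.46 with a median of 0.05 (quartiles -0.10 and 0.22), beside -0.05 for all 1041 probes above the level, and 130 members (97.7%) were within 0.5 of 0, against 88.8% of all probes. At least 2-fold higher were 2 members (1.504%), close to the background of 1.54%, and none was at least 2-fold lower, where the background was 0.768%. The 16 probes of the 2-fold higher background include all 8 miRNAs of intestinal epithelium listed above. At 1.5-fold the counts were 3 higher (background 3.27%) and 0 lower (background 4.42%).

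The spread of single spots was estimated from repeated spots of 4 bright control probes (SD of 0.092 on the log2 scale) and from the spots without a probe (SD of 11.1 and 13.0 intensity units). Together they give each log2 ratio a technical SD, 0.13 for a bright member and 0.30 at the median of the 133 members. It holds nothing of the spread between animals, extractions or hybridisations. Of the 133 members 106 (79.7%) differed by less than 1 technical SD, and 3 (2.26%) by more than 2, against backgrounds of 57.1% for less than 1 and 18.3% for more than 2. These shares are not on a like footing, since the median technical SD was 0.30 in the members and 0.20 over all probes. The 3 were miR-6973b-3p, miR-6902-3p and miR-6960-3p.

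**Figure D4:**
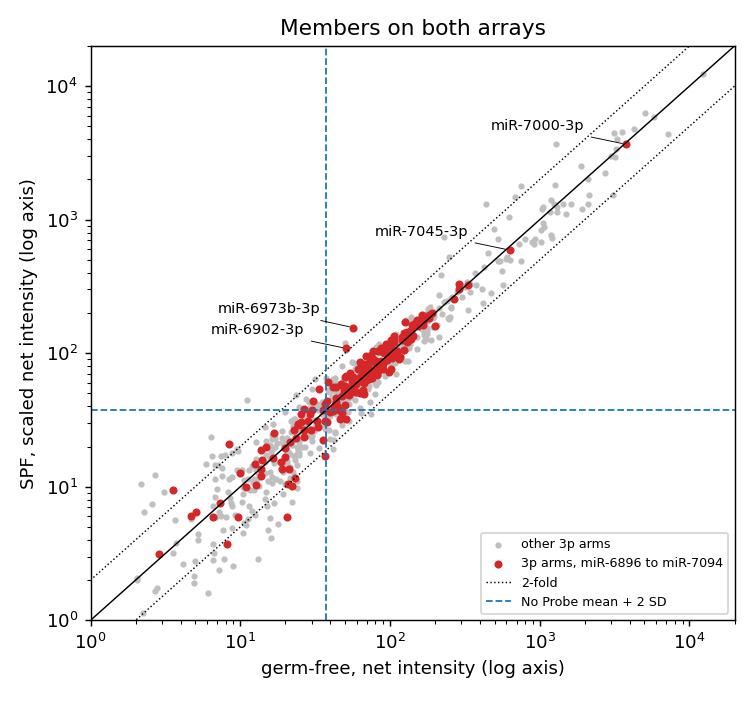
Scaled net intensity on the SPF array against net intensity on the germ-free array (both log axes), members in red and other 3p arms in grey. Members lie along the diagonal from the dashed No Probe level up to miR-7000-3p, and miR-6973b-3p and miR-6902-3p are those above the dotted 2-fold line with signal over the level on both arrays.

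miR-6973b-3p had the largest difference. Its net intensity was 56.6 in the germ-free sample and 183 in the SPF sample, a 2.75-fold increase after scaling (log2 1.46, technical SD 0.33). It moved from place 104 to place 19 among the members. Its own 5p arm went the other way, from 489 to 439 (log2 -0.39). The 27 other probes above the level in its block of the array had a median log2 ratio of -0.20 and none exceeded 0.29. The local background around the spot was 126 in germ-free and 196 in SPF. With that background subtracted the log2 ratio was 0.77, and with none subtracted it was 0.61, so the 2-fold call rests on subtracting the blank or No Probe mean.

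miR-6902-3p, from an intron of Ppp1r7, which encodes a regulatory subunit of protein phosphatase 1, went from 50.9 to 128 (log2 1.09, technical SD 0.37). This is 2.14-fold, and the germ-free value lies just above the No Probe level of 37.2. Probes of its block had a median of 0.13 and a highest value of 0.74. With local background subtracted its log2 ratio was 0.68, and with none 0.40. The 2 members that were at least 2-fold higher share no seed, and they differ in composition, since miR-6973b-3p has 40.0% and miR-6902-3p 14.3% cytosine.

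The next 4 were smaller. miR-7015-3p, from the Arf GTPase-activating protein gene Smap2, went from 38.6 to 71.1 (log2 0.65, technical SD 0.51) and was close to the level on the germ-free array. miR-6944-3p, from the actin-binding drebrin gene Dbn1, had a log2 ratio of 0.46 and a technical SD of 0.31. miR-7007-3p had 0.45 with a technical SD of 0.29. miR-6960-3p, from Troap, had 126 and 202 and a log2 ratio of 0.45, which is over 2 technical SD (0.20) but became -0.17 with local background subtracted. Its block had a median of 0.21.

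The 6 lowest members fell short of a 1.5-fold difference, with scaled SPF values 1.36-fold to 1.25-fold lower. miR-6959-3p (Sbf1) had 97.9 in the germ-free sample and 84.6 in the SPF sample, a log2 ratio of -0.45 with a technical SD of 0.30. miR-6901-3p (Sned1) had a log2 ratio of -0.44 and miR-7080-3p (Cpne7) -0.36. miR-6987-3p (Pcnx3) had -0.33 and miR-7087-3p (Sidt2) -0.32. All 6 were within 2 technical SD of 0. With local background subtracted miR-6959-3p and miR-7080-3p both came to 0.05 and miR-7087-3p to -0.04, whereas miR-6987-3p came to -0.83 and miR-6901-3p to -0.66, both past 1.5-fold lower.

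**Figure D5:**
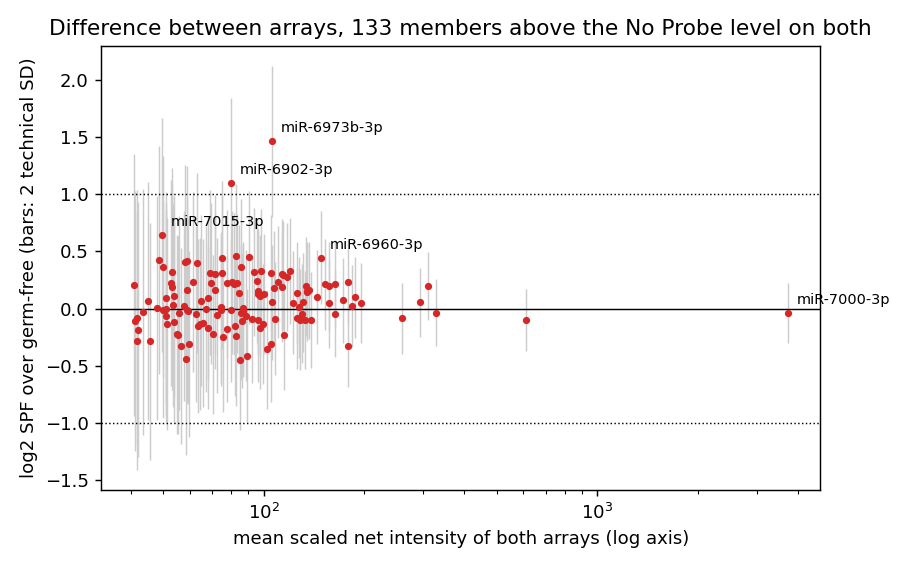
Log2 ratio of SPF over germ-free against mean net intensity (log axis) for 133 members; bars show 2 technical SD and dotted lines 2-fold. The bars of 3 members, miR-6973b-3p, miR-6902-3p and miR-6960-3p, do not reach 0, and the bright members at the right lie close to 0.

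With the blank mean subtracted, the bright members hardly differed between the arrays. The log2 ratio was -0.04 for miR-7000-3p and -0.10 for miR-7045-3p, each within 1 technical SD (0.13 and 0.14). It was -0.03 for miR-7052-3p, 0.06 for miR-7036b-3p, -0.08 for miR-7082-3p, 0.05 for miR-7004-3p and 0.10 for miR-7016-3p. For miR-7028-3p it was 0.20 with a technical SD of 0.15. The sign of ratios this small depends on the scaling: without scaling miR-7000-3p was at 0.20 and miR-7045-3p at 0.14. Local background had a larger influence on miR-7045-3p, whose spot had a surround of 637 in germ-free and 401 in SPF. With local background subtracted its log2 ratio was 1.33. That of miR-7036b-3p was then 0.42, of miR-7082-3p -0.29, of miR-7004-3p -0.18 and of miR-7028-3p -0.07. miR-7000-3p, miR-7052-3p and miR-7016-3p were then at 0.08, -0.12 and 0.12.

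Above the level on 1 array only were 6 of the 201 members on each side, all near it. Over all 1900 miRNA probes, 63 passed it in germ-free but not in SPF, and 40 passed it in SPF but not in germ-free. The 4 brightest on the SPF array only were miR-7026-3p (63.5, against 33.8 on the germ-free array), miR-6911-3p (51.6 against 30.5), miR-6999-3p (49.4 against 36.8) and miR-7089-3p (44.7 against 26.5). Set against the germ-free No Probe level, miR-7026-3p was at least 1.45-fold higher after scaling, but with local background subtracted its log2 ratio was -0.30. On the germ-free array only, miR-6946-3p had 50.5 against 37.6 on the SPF array, miR-7033-3p 48.0 against 42.2, miR-6904-3p 46.2 against 38.0 and miR-6918-3p 41.5 against 43.6. miR-6946-3p was at least 1.35-fold lower for SPF. For all 8 the bound against the No Probe level was smaller than 1 technical SD. The other 56 members were under the level on both arrays and get no ratio.

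Seeds, which decide most of target recognition, were diverse. The 177 sequences held 169 seeds, and 7 seeds were shared by members, 15 members in all. The seed GCUCUCU joins the member of the highest ratio with one near 0: miR-7063-3p, from the AP-2 adaptor gene Ap2a2, had 125 and 168 (log2 0.20, technical SD 0.21), beside 1.46 for miR-6973b-3p. CACCCUG is the seed of miR-7018-3p, miR-7023-3p and miR-7068-3p, of which only miR-7023-3p exceeded the level on both arrays, with a log2 ratio of 0.16. CUGAGCU is shared by miR-6927-3p at -0.24 and miR-6945-3p at 0.23. The partners of miR-7015-3p (CUCACUG, with miR-6992-3p), miR-7048-3p (CUUCCAU, with miR-7077-3p) and miR-7039-3p (CUGUUCU, with miR-6932-3p) did not exceed the level on both arrays, and miR-7048-3p and miR-7039-3p were at 0.10 and 0.29. CUGUUCU is also the seed of miR-26a-2-3p and miR-26b-3p. The remaining shared seed, GUUCUUU, belongs to miR-6935-3p and miR-7092-3p.

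Names with a letter did not mark like sequences here. miR-6973a-3p has the seed ACUCUAA and lies in an intron of Ltb. Its net intensity was 86.4 in the germ-free sample and 91.6 in the SPF sample (log2 -0.15, technical SD 0.31), against 1.46 for miR-6973b-3p. miR-7036a-3p and miR-7036b-3p differ in seed as well, with log2 ratios of 0.23 and 0.06.

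Several host genes belong to the immune system, and 12 of these members were picked by host after their hosts and values had been seen. Of the 12, 9 exceeded the level on both arrays, beside 66.2% of all members and 54.8% of all probes. Their log2 ratios ran from -0.29 to 0.45. None of these 9 was beyond 2 technical SD, where the shares were 2.26% of the 133 members and 18.3% of all probes above the level. miR-7007-3p, in an intron of the mast cell carboxypeptidase gene Cpa3, had 76.6 and 123 and the highest ratio of them. miR-6974-3p in the lymphotoxin gene Lta had 99.8 and 109, and miR-7058-3p in Lat, the adaptor of the T cell receptor, had 53.6 and 57.5, with ratios of -0.10 and -0.13. miR-7023-3p in Pik3cd, the leukocyte phosphoinositide 3-kinase, had 127 and 167. miR-6949-3p in the basophil protease gene Mcpt8 had 42.6 and 46.6, and miR-6978-3p in the complement gene C3 had 56.6 and 65.0. miR-6957-3p (Grap2), miR-6996-3p (Notch1) and miR-7086-3p (Il10ra, the interleukin-10 receptor) were under the level on both arrays. The host mRNAs were not analysed here, so whether host and intron product moved together was not tested.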

How the data were processed

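Each deposited file lists 3200 spots with the median intensity of the spot and of its surround at 635 nm, from scans at several gains per the file headers. For scanner, platform and miRBase release the sources used here say nothing. A Qiagen kit was used for extraction and an Exiqon kit for labelling, per the labels' protocols. The mean of blank spots (896 and 895, 1 spot marked NG left out) was subtracted, and SPF values were scaled by 0.849 on the 1471 miRNA probes above the blank mean + 2 SD on both arrays. The No Probe level, technical SD and ratios are defined with the results. A member above the level on 1 array only was compared with the level of the other array.

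Members named in the text were the 8 brightest, the 6 highest and 6 lowest ratios, the 4 brightest above the level on 1 array only per array, members with a shared seed above the level on both arrays, and both ends of the range; 1 of the 6 lowest is not reported here; the members picked by host, letter, or unlisted seed partners were added later. The members and lists were chosen with earlier results of these data known. Intron ends came from GENCODE M21 exons, taking the intron whose end lies nearest. For the 2 members with more than 1 locus, only the first by chromosome and position was used. The ratio procedure was tested on simulated data in which only probes over a net intensity of 100 were changed. The added noise was near the spread of blank spots, which is smaller than that of spots without a probe. The simulation therefore does not cover weak members such as the 2 past 2-fold. Python with numpy 2.4.6, pandas 2.3.3 and scipy 1.17.1 was used. The number of arrays limits the precision. Alternatives covered the level, scaling, background and fold threshold.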

Additional observations from a re-analysis of the deposited data

How the results depend on the processing

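With the level set from the blank spots, from the No Probe mean + 3 SD or the 95th percentile, or with no level, between 120 and 191 members counted as above it on both arrays. miR-6973b-3p and miR-6902-3p were the members at least 2-fold higher under each scaling and each level tried, joined by others only with no level (4 higher and 4 lower in all). With no level these were of 191 members, beside 64 higher and 89 lower of 1691 probes. With the blank floor 2 of 181 members were lower, beside 21 of 1471 probes. They were miR-6958-3p and miR-7068-3p, both under the No Probe level. Without background subtraction 0 of 133 members were higher, beside 6 of 1041 probes. At 3-fold, with the blank mean subtracted, 0 members were higher or lower, a count without a share over all probes beside it. The log2 ratios of all probes above the level ran from -1.61 to 1.86. With local background subtraction 2 of 93 members were higher, beside 58 of 785 probes, but they were different members, miR-6923-3p and miR-7045-3p. The median ratio of the members was 0.29 without scaling, where that of all probes was 0.19, and between 0.02 and 0.09 under the other alternatives. It lay above the median of all probes under every alternative, by 0.04 to 0.11. A constant scale factor cannot change this difference, which was 0.10 with and without scaling. All alternatives also use the same 2 arrays, so they are not independent support. Without scaling 12 of the 36 named members, with local background subtraction 17 of 31, and without background subtraction 3 of 36 moved by over 1 technical SD; none of the 2 members past 2-fold changed sign. The count of members brighter than their 5p arm stayed between 26 and 29. No paired analysis was possible because each group has 1 array. Signal near the No Probe level limits the ratios of most members.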

Other observations

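Outside the number range, 30 other 3p arms also ended within 2 bases of an annotated intron end. Of these, 22 (73.3%) exceeded the No Probe level in the germ-free sample and 23 (76.7%) in the SPF sample. Their median net intensity was 55.6 in germ-free and 70.7 in SPF, beside 59.0 and 71.1 for the members. The log2 ratios of the 22 above the level on both arrays ran from -0.26 to 0.74 with a median of -0.03, and none was 2-fold higher or lower. The 3 long-known mirtrons checked outside the range were alike on both arrays. miR-877-3p had 178 and 206 (log2 -0.03), miR-1224-3p had 131 and 134 (log2 -0.20) and miR-702-3p had 99.9 on each (log2 -0.24).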
